A study of Mus musculus with 24 samples.

Results

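Retinoic acid, the active form of vitamin A, is made in cells from retinol by way of retinaldehyde, is held by small carrier proteins, acts on nuclear receptors that bind DNA as pairs, and is removed by enzymes of the Cyp26 family. Because it is both made and broken down locally, its level in a tissue depends on the enzymes at both ends of this route. The striatum, of which the nucleus accumbens (NAc) is the ventral part, is known for strong expression of the receptors RARβ and RXRγ, and the D2 dopamine receptor gene Drd2 is a known target of these receptors. The 7 genes described here are Aldh1a1 and Aldh1a3, which make retinoic acid from retinaldehyde, Crabp1, which carries it in the cytoplasm, Cyp26b1, which breaks it down, and Rara, Rarb and Rxrg, which encode the receptors RARα, RARβ and RXRγ. They were taken by their Ensembl identifiers from the 38293 genes of the mRNA count file, each symbol having 1 identifier, and all 7 passed the filter on low counts that left 18593 genes. The genes were chosen from this pathway with results of the same libraries already known. Their differences between groups are therefore given as descriptions, with standard errors and without tests, and the tests below concern 56 other genes of the pathway. The lists of those genes were also drawn up with earlier results of these data known, so their p values are not free of that choice.

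The NAc of C57BL/6J mice was sampled in 4 groups that differed in sex and in exposure to subchronic variable stress (SCVS), a course of alternating foot shock, tail suspension and restraint that ended a day before the tissue was taken. The groups were unstressed males (NSM), stressed males (SM), unstressed females (NSF) and stressed females (SF), all aged 9 weeks by the labels, and only females in estrus or proestrus were used. Each group had 3 mRNA libraries, and each library pooled 10 punches from 5 mice, so the spread within a group is that between pools and not between animals. The question was how the transcriptional response to SCVS differs between the sexes. Libraries held 41076780 to 60867747 counted reads. The 7 genes lie on the NCBIM37 build at chr19:20676451-20717952 (Aldh1a1, plus strand), chr7:73535778-73572403 (Aldh1a3, minus), chr9:54612555-54620917 (Crabp1, plus), chr6:84521938-84543740 (Cyp26b1, minus), chr11:98789132-98836256 (Rara, plus), chr14:17263356-17651381 (Rarb, minus) and chr1:169528515-169569754 (Rxrg, plus). All are protein coding, and none shares exon bases with another annotated gene.

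Markers of the medium spiny neurons, the principal cells of the NAc, were high in every library, with Drd1a at 272 to 383 CPM (the counted reads of a gene per 1000000 reads of its library after scaling by TMM factors, which correct for differences in library composition) and Drd2 at 131 to 160. Genes of cortical glutamatergic neurons, cells that the NAc itself lacks, varied widely. The summed level of 7 such genes was 5.49 to 21.4 CPM in NSM, 48.0 to 197 in SM, 21.4 to 366 in NSF and 42.9 to 114 in SF. All 7 had higher fitted means in SM than in NSM, with a mean log2 difference of 2.82, and 2 of them were called in limma (a p under 0.05 without adjustment, with a change of at least 1.3-fold, the rule of the study); none of the 7 was at 0 in all libraries. A sum over 3 red blood cell genes was 16.9 to 21.1 CPM in NSM, 30.4 to 35.5 in SM, 23.5 to 29.6 in NSF and 22.8 to 25.1 in SF, and all 3 were called higher in SM. A choroid plexus transcript, Ttr, stood at 66.1 CPM in the first NSM library and at 0.487 to 2.62 in the other 11. In punches of tissue, fewer cells of a type and less RNA per cell cannot be told apart.

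The promoters of these genes were read to show which carry the classical retinoic acid response element, a direct repeat of 2 half-sites separated by 5 bases. The windows below are the 100 bases before the annotated transcription start, from RefSeq on GRCm38.p6, written 5′ to 3′ on the strand of the gene, and are shown for Rarb, whose receptor is both a sensor and a target of retinoic acid, for Cyp26a1, the inducible relative of Cyp26b1, and for Aldh1a1 and Cyp26b1, whose fitted changes with stress in males lay farthest from 0 among the 7 genes. Capitals mark the repeat.
Rarb, chr14:16575477-16575576, minus strand: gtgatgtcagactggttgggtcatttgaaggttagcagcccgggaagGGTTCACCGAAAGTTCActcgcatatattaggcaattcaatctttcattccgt
Cyp26a1, chr19:37697708-37697807, plus strand: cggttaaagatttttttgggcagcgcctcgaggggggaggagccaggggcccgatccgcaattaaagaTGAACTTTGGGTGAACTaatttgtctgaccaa
Aldh1a1, chr19:20601868-20601967, plus strand: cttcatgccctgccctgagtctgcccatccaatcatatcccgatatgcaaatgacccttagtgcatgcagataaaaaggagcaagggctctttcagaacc
Cyp26b1, chr6:84593811-84593910, minus strand: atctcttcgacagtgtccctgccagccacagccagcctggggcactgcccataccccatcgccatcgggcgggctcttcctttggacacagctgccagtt
Half-sites were the letters AGGTCA and its variants AGTTCA (found in both genes), GGGTCA as well as GGTTCA (found in Rarb), searched as direct repeats on both strands with 1, 2 or 5 bases between them, in windows from 250 bases before to 50 bases after each start. The Rarb start used here lies inside the gene, 243391 bases from the 5′ end of the span given above. Rarb held 1 repeat spaced by 5 bases, on the strand of the gene at positions -53 to -37 from that start, and Cyp26a1 held 1 on the opposite strand at -32 to -16. Such a repeat was found in 0.0974% of all 32851 promoters of the table, a repeat spaced by 1 base in 0.222% and one spaced by 2 bases in 0.268%. The other 5 genes with a promoter in the table, 10 promoters among them, held none of the 3 repeats in these windows, which says only that these letters are not there. Of the 56 other pathway genes, 46 had a promoter, and besides Cyp26a1 only Bco1, encoding a carotene-cleaving enzyme, held 1 of the repeats.

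Per kilobase of exon, the receptor genes Rarb and Rxrg stood above the other 5 genes in every library. On this scale (RPKM, the CPM of a gene divided by its exon length in kilobases), Rarb ran from 40.7 to 57.2 over the 12 libraries and Rxrg from 35.9 to 47.8, and these ranges overlapped. Crabp1 followed with 6.54 to 9.81 and Aldh1a1 with 2.82 to 7.31, which overlapped each other and lay below both of those receptors in every library. Rara, at 0.865 to 1.31, overlapped no other of the 7. Cyp26b1, at 0.180 to 0.676, and Aldh1a3, at 0.0545 to 0.258, were the lowest and overlapped. Among the other receptors, Rxrb ran from 15.3 to 17.6, Rxra from 6.86 to 8.20 and Rarg from 2.46 to 2.96, so that Rarb was the highest of the RARs and Rxrg the highest of the RXRs in all libraries. In reads, Rarb rested on 6288 to 9062 per library and Rxrg on 3923 to 5483, while Cyp26b1 rested on 33 to 159 and Aldh1a3 on 10 to 56, so the last 2 genes are measured least precisely.

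**Figure D1:**
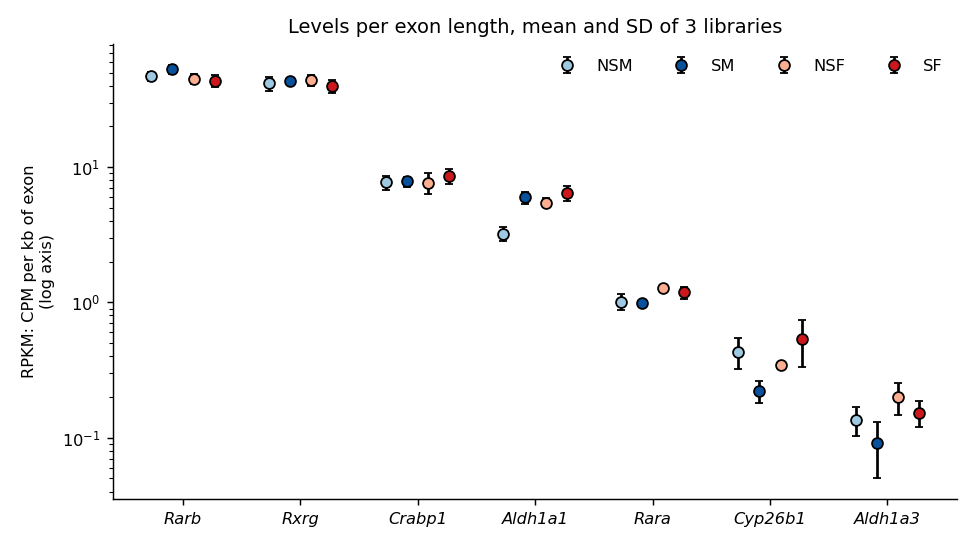
Levels of the 7 genes per exon length on a log axis (CPM per kilobase of exon), with points and bars for the mean and SD of the 3 libraries of each group. Rarb and Rxrg lie near the top at about the same level, Crabp1 and Aldh1a1 below them, then Rara, with Cyp26b1 and Aldh1a3 lowest.

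Aldh1a1, the cytosolic retinaldehyde dehydrogenase, was low in unstressed males and higher, with overlapping ranges, in the 3 other groups. Its level was 6.74, 7.28 and 5.80 CPM in the 3 NSM libraries and 13.5, 12.3 and 11.0 in the 3 SM libraries. In females it was 10.5, 10.9 and 12.2 CPM without stress (NSF) and 11.7, 12.7 and 15.0 with it (SF). All NSM libraries lay below all 9 others, whereas SM, NSF and SF overlapped one another. That NSM pattern was found in 2.53% of the 18593 tested genes and in none of the 45 other pathway genes among them. Group means were 6.61 ± 0.748 CPM (SD, n = 3) in NSM, 12.3 ± 1.24 in SM, 11.2 ± 0.876 in NSF and 13.1 ± 1.70 in SF. The fitted log2 fold change with stress was 0.89 ± 0.12 (SE) in males, or 1.86-fold, and 0.22 ± 0.10 in females, or 1.17-fold. The female minus male difference of these changes was -0.67 ± 0.16 on the log2 scale. Unstressed females exceeded unstressed males by 0.77 ± 0.12 log2 units, or 1.70-fold, and the NSM libraries enter this difference and the male stress difference alike.

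The sum of the red blood cell genes had the same pattern, with all 3 NSM libraries (16.9 to 21.1 CPM) below all 9 others (22.8 to 35.5), and its part in the Aldh1a1 difference was not tested. The sum of the 7 cortical genes was also lowest in NSM, where the highest library and the lowest of the other groups, the second NSF library, both stood at 21.4 CPM. With the mean level of the cortical genes as a term in the fit, the male log2 change of Aldh1a1 was 0.88. Without the 5 libraries in which the mean log2 CPM of those genes was above 1 it was 1.04. Of SM only the first library was left there, the highest of that group in Aldh1a1. Genes of midbrain dopamine neurons, a known site of Aldh1a1, summed to 30.4 to 33.9 CPM in NSM and 29.3 to 31.5 in SM, and the part of these cells was not tested. The neighbouring paralog Aldh1a7, with which reads could be shared, stood at 0.276 to 0.366 CPM in NSM and 0.361 to 0.510 in SM, and took 1.88% to 5.93% of the reads counted to either gene.

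**Figure D2:**
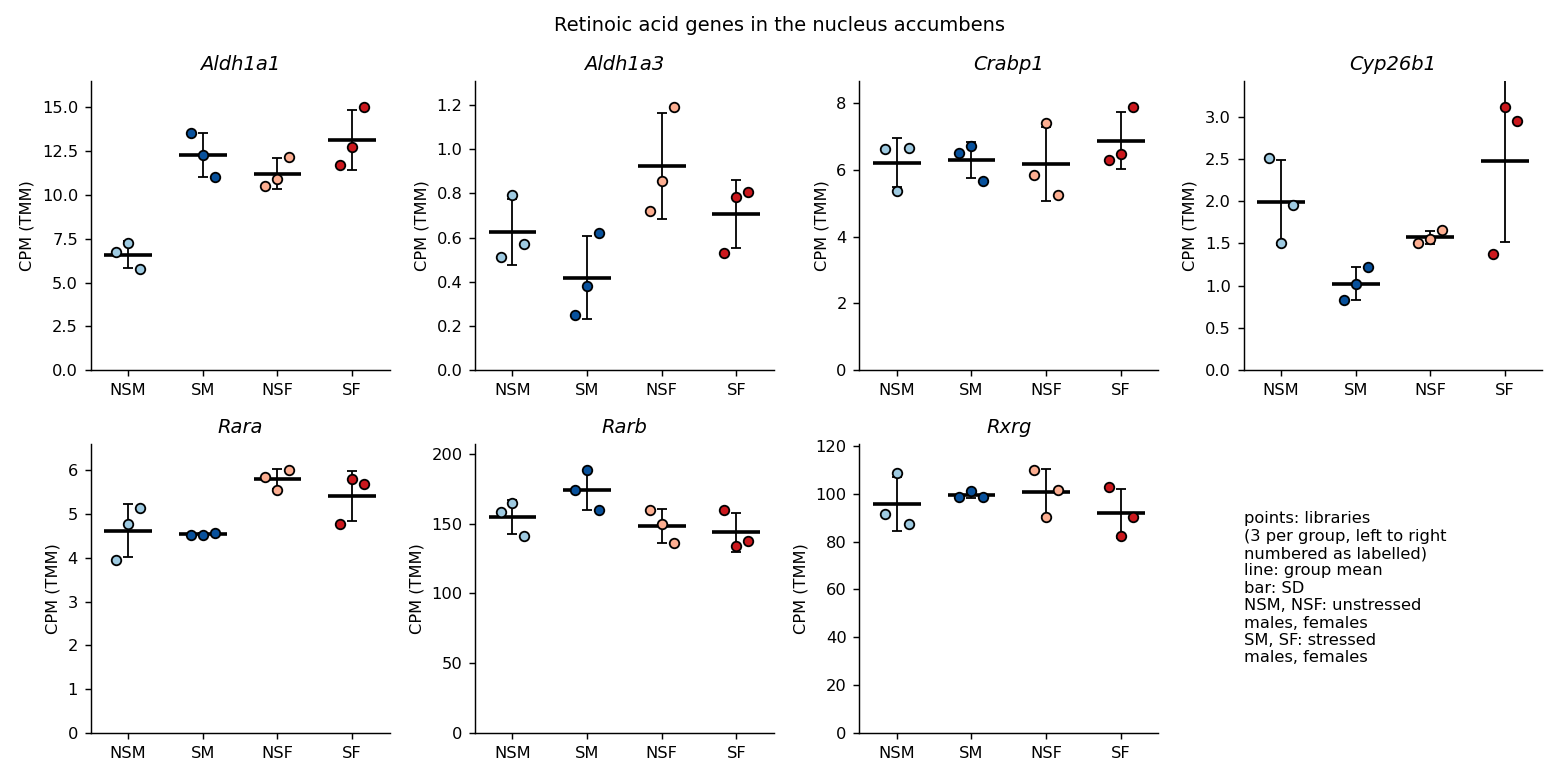
CPM of the 7 genes in each of the 12 libraries (points), with the mean (line) and SD (bar) of the 3 libraries of each group, each axis starting at 0. The 3 NSM libraries are below all others for Aldh1a1, and the SM libraries are lowest for Cyp26b1.

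Aldh1a3, a second enzyme of the same step, was read at very low levels in this tissue. It measured 0.512, 0.793 and 0.572 CPM in NSM and 0.252, 0.383 and 0.620 in SM. In NSF it measured 0.721, 0.858 and 1.19 CPM, and in SF 0.530, 0.782 and 0.808. All pairs of stressed and unstressed groups overlapped, and the lowest mean was that of SM. The log2 change with stress was -0.60 ± 0.33 in males and -0.37 ± 0.27 in females, with a difference of 0.23 ± 0.43 between them, and unstressed females differed from unstressed males by 0.56 ± 0.28. Without the 5 libraries high in cortical genes the male value of Aldh1a3 was -1.23, with only 1 SM library left.

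Crabp1, whose product binds retinoic acid in the cytoplasm and delivers it for breakdown, kept a similar level in all 4 groups. The NSM libraries had 6.62, 5.36 and 6.65 CPM and the SM libraries 6.49, 6.70 and 5.67. The NSF libraries had 5.84, 7.39 and 5.25 CPM and the SF libraries 6.29, 6.46 and 7.86. The groups overlapped in all 4 comparisons, and the log2 changes with stress were 0.02 ± 0.14 in males and 0.14 ± 0.13 in females.

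Cyp26b1, the hydroxylase that clears retinoic acid, was lowest in stressed males. Its level was 2.51, 1.50 and 1.95 CPM in NSM and 0.831, 1.02 and 1.22 in SM, with no overlap between these groups. In NSF it was 1.51, 1.55 and 1.66 CPM, and in SF 1.38, 3.11 and 2.95. The female groups overlapped, since the first SF library lay below all NSF libraries and the other two lay above them. Means were 1.99 ± 0.502 CPM (SD, n = 3) in NSM, 1.02 ± 0.194 in SM, 1.57 ± 0.0756 in NSF and 2.48 ± 0.958 in SF. The log2 change with stress was -0.94 ± 0.32 in males, or 0.521 of the control level, and 0.57 ± 0.28 in females, or 1.49-fold. Their difference was 1.51 ± 0.43, and SM and SF did not overlap. Among unstressed mice the female minus male value was -0.32 ± 0.28. The cortical gene sums were higher in SM than in NSM while Cyp26b1 was lower, and with the cortical term in the fit its male change was -1.28 and its female change 0.71. The part of tissue composition in the Cyp26b1 differences was not tested. The other 2 genes of this family gave little signal, with 3 to 15 reads per library for Cyp26a1 and 0 to 3 for Cyp26c1, and were not tested.

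**Figure D3:**
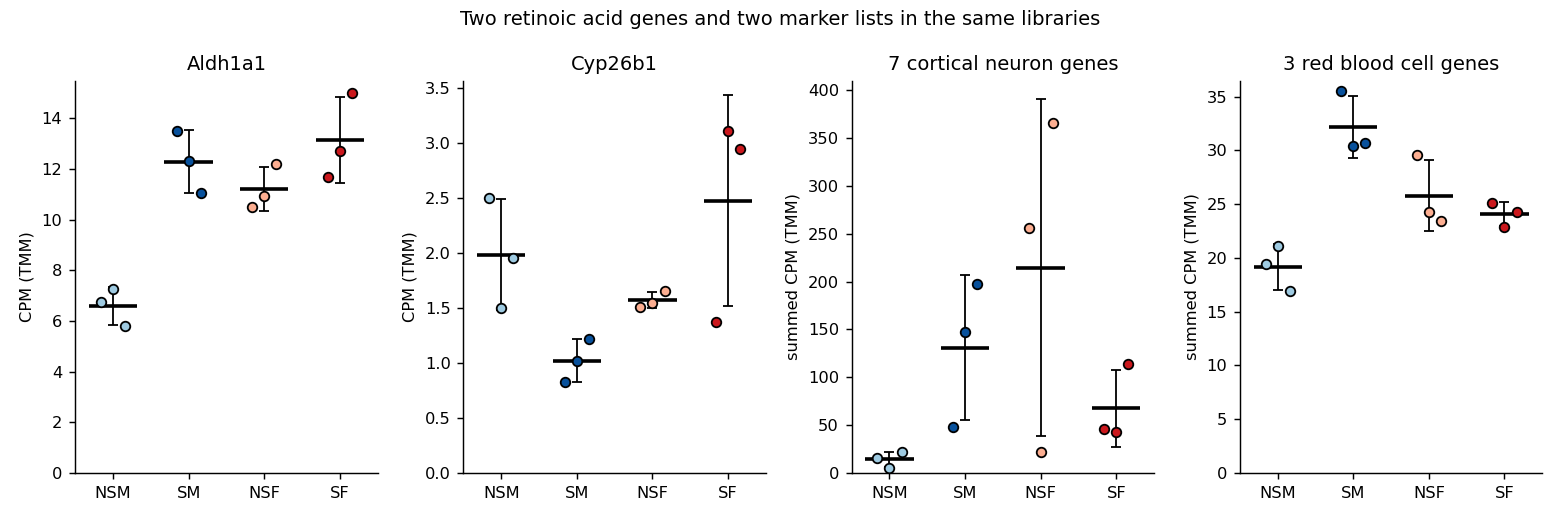
Aldh1a1 and Cyp26b1 beside the summed CPM of 7 cortical neuron genes and of 3 red blood cell genes in the same 12 libraries, with points for libraries and lines and bars for the mean and SD of 3. The 3 NSM libraries are below the 9 others for Aldh1a1 and for the red blood cell genes (16.9 to 21.1 CPM against 22.8 to 35.5).

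The receptors moved little. Rarb, the most abundant of the 7 per exon length, had 158, 165 and 141 CPM in NSM and 174, 188 and 160 in SM. It had 160, 149 and 136 CPM in NSF and 160, 134 and 137 in SF. Stressed and unstressed mice of each sex overlapped, while every SM library lay above the SF libraries by a margin that was under 1 CPM at its narrowest. The log2 change was 0.17 ± 0.08 in males and -0.05 ± 0.08 in females. The female minus male difference of these changes was -0.22 ± 0.12, and the repeat in its promoter is shown above.

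Rxrg, encoding the partner with which RARs bind DNA, had 91.5, 108 and 87.1 CPM in NSM and 98.7, 101 and 98.7 in SM. It had 110, 90.5 and 102 CPM in NSF and 103, 82.5 and 90.1 in SF. All groups overlapped, and the log2 changes with stress were 0.06 ± 0.09 in males and -0.13 ± 0.09 in females.

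Rara stood higher in females than in males in most libraries. It measured 3.95, 4.78 and 5.15 CPM in NSM and 4.53, 4.53 and 4.56 in SM. In females it measured 5.86, 5.54 and 6.01 CPM in NSF and 4.77, 5.81 and 5.68 in SF. The NSF libraries lay above all male libraries, and the SF libraries lay above all SM libraries but overlapped NSM. Unstressed females exceeded unstressed males by 0.34 ± 0.11 log2 units, or 1.26-fold, and the stress changes were -0.01 ± 0.11 in males and -0.10 ± 0.10 in females.

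The call rule, used in the study, was met by 2 of the 7 genes in stressed against unstressed males (Aldh1a1 and Cyp26b1), where 6.44% of the 18593 tested genes met it. It was met by 0 of the 7 in females, where 1.73% of genes met it. With edgeR and with DESeq2 in place of limma it was met there by 1, Cyp26b1, beside 371 and 194 of 18593 genes. It was met by the same 2 in the sex-by-stress interaction (4.42% of genes) and by 1, Aldh1a1, between unstressed females and males (5.31% of genes). Libraries of NSM and SM did not overlap for 2 of the 7 (23.0% of genes), NSF and SF for 0 (11.3%), NSM and NSF for 2 (19.5%) and SM and SF for 3 (20.4%). Since the 7 were chosen with these results known, nothing follows from either set of counts. Their median log2 change was 0.02 in males and -0.05 in females, beside -0.01 and -0.00 over all genes. Without the first NSM library 1 of the 7, Aldh1a1, met the rule in males, beside 1552 of all 18706 genes tested there.

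**Figure D4:**
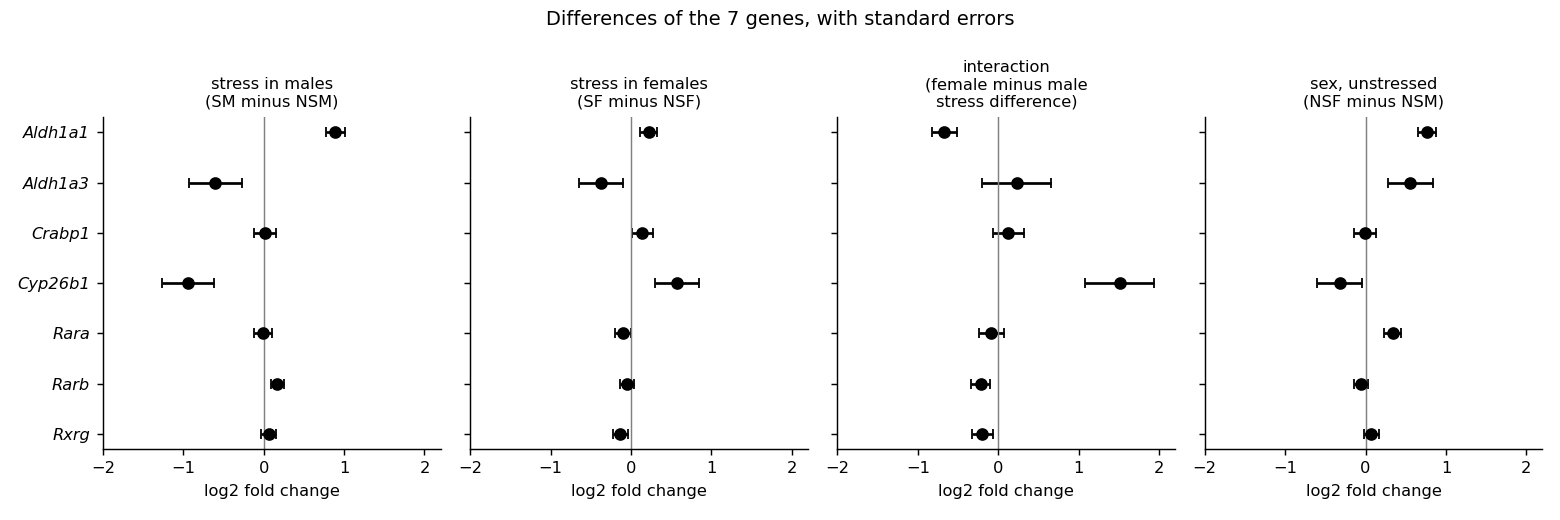
Fitted log2 fold changes of the 7 genes (points) with standard errors (bars) for stress in males, stress in females, the female minus male difference of the stress changes, and sex among unstressed mice. Aldh1a1 (0.89) and Cyp26b1 (-0.94) lie farthest from 0 in males, and Cyp26b1 (1.51) farthest in the interaction.

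Of the 56 other genes of the pathway, 45 passed the filter on low counts. In males 7 of the 45 were called, 5 higher and 2 lower with stress, beside 6.44% of all tested genes, and in females 1, which was lower, beside 1.73% of all. The median log2 change of the 45 was -0.01 in males and -0.00 in females, the same to 2 decimals as over all genes. In limma 2 of the 45, Rbp4 and Fabp5, had a Benjamini-Hochberg adjusted p under 0.05 in males, as had 618 of all 18593 genes. By edgeR it was 2 of the 45, beside 617 of all genes, and by DESeq2 5, beside 1180. With the cortical term in the fit, only 1 of all 18593 genes had a limma adjusted p under 0.05 in males. Leaving out 1 library at a time gave 79 to 972 such genes, the fewest without the second SM library. The number of called pathway genes in males was 4 without the second SM library, beside 916 of all 18639 genes tested there. With the cortical term in the fit it was 3, beside 1275 of 18593.

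Genes for the uptake and storage of retinol held 4 of the 7 male calls among their 5 tested members, beside 6.44% of all genes called. Rbp4, the plasma carrier of retinol, rose in males from 6.85, 5.77 and 5.98 CPM in NSM to 8.61, 9.50 and 9.10 in SM, with no overlap. Its log2 change was 0.55 ± 0.12 (limma adjusted p = 0.0269). The call, which rests on p without adjustment, held under all 24 alternatives of the processing that were run for it, between 0.47 and 0.64. This does not extend to the adjusted p. In females Rbp4 measured 7.60, 9.29 and 7.26 CPM in NSF and 8.32, 6.69 and 8.65 in SF, a log2 change of -0.05 ± 0.11, and the interaction of -0.60 ± 0.17 was called (limma adjusted p = 0.260). Like Aldh1a1, Rbp4 was also called higher in unstressed females than in unstressed males, by 0.38 ± 0.12 (limma adjusted p = 0.156). That call was lost without the second or the third NSM library, the second NSF library, the second SF library or any 1 SM library, with its log2 value from 0.26 to 0.45 when 1 library at a time was left out, and it held in 5 of the 12 other alternatives.
The summed level of 8 choroid plexus genes, a known source of Rbp4, was 114, 42.3 and 40.5 CPM in the 3 NSM libraries and 37.0 to 41.3 in SM, and its part in the Rbp4 difference was not tested. Rlbp1, a retinaldehyde-binding protein of glial cells, was called higher in males, from 6.14, 5.75 and 5.48 CPM to 8.18, 8.08 and 8.93 (log2 change 0.53 ± 0.16; limma adjusted p = 0.0850), and not called in females (0.15 ± 0.15). With the cortical term in the fit this male call was lost. Markers of 2 glial cell types were also higher in SM than in NSM. The sum over 6 oligodendrocyte genes was 4601 to 5145 CPM in NSM and 5528 to 5559 in SM, with 6 of 6 fitted means higher and 0 called, and that over 6 microglia genes was 249 to 270 and 281 to 314, with 6 of 6 higher and 2 called. Astrocyte genes summed to 3560 to 4191 CPM in NSM and 3930 to 4452 in SM, with 1 of 6 fitted means higher and 0 called, and the part of these cell types in the Rlbp1 difference was not tested. Stra6, the membrane receptor for Rbp4, was called lower in males, from 19.5, 21.8 and 17.8 CPM to 13.4, 15.2 and 16.5 (log2 change -0.38 ± 0.17; limma adjusted p = 0.214). It was also the 1 gene called in females, from 27.3, 17.2 and 23.5 CPM to 20.1, 15.4 and 13.2 (log2 change -0.46 ± 0.16; limma adjusted p = 0.948). The male groups of Stra6 did not overlap and the female groups did. The male call was lost without any 1 of the first and second NSM, first and second SM, first and the third NSF or second SF libraries and held in 6 of the 12 other alternatives, and the female call was lost without the first NSF or the third SF library. Stra6l, a relative of Stra6, was read at 0.124 to 0.276 CPM in NSM and 0.288 to 0.529 in SM and was called higher (log2 change 0.95 ± 0.34; limma adjusted p = 0.134), a call lost without the first NSM or the first SM library and with the cortical term. Lrat, which stores retinol as esters, was not called, with log2 changes of -0.00 ± 0.33 in males and 0.47 ± 0.31 in females.

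The enzymes that interconvert retinol and retinaldehyde gave no calls with stress. None of their 14 tested members was called in either sex by limma, edgeR or DESeq2. By limma 6.44% of all genes were called in males and 1.73% in females. At an unadjusted p under 0.05 limma gave 0 in males and 1 in females, beside 3992 and 786 of all 18593 genes. The most abundant of these enzymes, Rdh11, had log2 changes of 0.01 ± 0.06 in males and 0.08 ± 0.06 in females. Rdh14 had 0.09 ± 0.06 and -0.00 ± 0.06. Aldh1a2, another retinaldehyde dehydrogenase, was read at 0.793 to 1.08 CPM in NSM and 0.829 to 1.28 in SM, and its changes were 0.23 ± 0.21 in males and -0.18 ± 0.21 in females.

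Among the carriers, Fabp5, which can bring retinoic acid to a partner receptor of RXR, rose in males from 49.0, 47.3 and 39.9 CPM to 60.6, 60.4 and 54.3. The groups did not overlap, and the log2 change of 0.37 ± 0.08 passed the adjusted test (limma adjusted p = 0.0269), while its fold of 1.29 lay just under that of the call rule. In females Fabp5 changed by 0.05 ± 0.08. Crabp2, the carrier that delivers retinoic acid to RARs, had log2 changes of -0.03 ± 0.24 in males and 0.25 ± 0.24 in females. The remaining receptors were not called. Rxrb had changes of -0.01 ± 0.05 in males and -0.01 ± 0.05 in females, and Rxra of -0.12 ± 0.05 and 0.08 ± 0.05.

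Of 7 coregulators, which pass the state of the receptors to chromatin, 0 were called in either sex by limma, edgeR or DESeq2. By limma 3 had an unadjusted p under 0.05 in males and 0 in females, beside 3992 and 786 of all 18593 genes. All 3 were lower with stress. The median log2 change of the 7 coregulators was -0.16 in males and 0.02 in females, beside -0.01 and -0.00 over all genes. The most abundant coregulators, Ncor1 and Ncoa1, had male log2 changes of 0.00 ± 0.05 and 0.02 ± 0.06. Their female changes were 0.02 ± 0.05 and 0.04 ± 0.06.

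Receptors that pair with RXR held the other 3 male calls among 9 tested, beside 6.44% of all genes called. Nr4a1, an activity-induced receptor, was called lower in males, from 74.0, 106 and 105 CPM to 72.7, 62.3 and 54.9 (log2 change -0.58 ± 0.20; limma adjusted p = 0.122), a call lost without the second NSM or the third SM library and without the 5 libraries high in cortical genes. Nr4a2, its relative and a factor of cortical and dopamine neurons, was called higher, from 1.78, 1.02 and 2.41 CPM in NSM to 2.82, 10.1 and 12.8 in SM (log2 change 2.16 ± 0.94; limma adjusted p = 0.206). In NSF it was at 12.0, 2.01 and 14.2 CPM and in SF at 2.90, 2.95 and 8.78, so the libraries high in Nr4a2 were the 5 in which the cortical genes were high. With the cortical term its male change was -0.29, and without any 1 of the 3 NSM libraries or of the second and the third SM libraries the call was lost. Pparg, a fatty acid receptor best known from fat tissue, was read at 0.138 to 0.224 CPM in NSM and 0.244 to 0.468 in SM and was called higher in males (log2 change 0.78 ± 0.34; limma adjusted p = 0.200), a call lost without the third NSM or second SM library, by DESeq2, with the cortical term and without the 5 libraries high in cortical genes. The abundant thyroid hormone receptors Thra and Thrb had male changes of 0.02 ± 0.04 and 0.03 ± 0.05.

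The genes listed as known targets of retinoic acid signalling were not called with stress in either sex. Genes given under other roles are not in this list, among them Rarb, itself a target. Of the 7 listed genes 4 passed the filter, and none was called by edgeR or DESeq2. By limma 1 had an unadjusted p under 0.05 in males and 0 in females, beside 3992 and 786 of all 18593 genes. Drd2, the D2 dopamine receptor, had 148, 143 and 130 CPM in NSM and 152, 159 and 141 in SM, a log2 change of 0.10 ± 0.08, and -0.03 ± 0.08 in females. Tgm2, a transglutaminase induced by retinoic acid in many cells, had changes of -0.23 ± 0.10 in males and -0.11 ± 0.10 in females. Between unstressed females and males 3 of the 45 genes were called, beside 5.31% of all genes. All 3 were higher in females, as were 775 of the 988 genes called over the whole file. The 3 genes were Rbp4 as above, Pparg by 0.77 ± 0.33 (limma adjusted p = 0.288) and Rarres2, which encodes chemerin, by 0.39 ± 0.17 (limma adjusted p = 0.301). The call of Pparg held in 10 of the 12 fits that left out 1 library and in 6 of 11 other alternatives, and that of Rarres2 in 7 of 12 and in 5 of 12. Leaving out 1 library at a time gave 1 to 4 called pathway genes, beside 705 to 1231 of all genes. There was 1 without the second NSM or the third SM library, beside 911 of 18768 and 989 of 18631 genes. The interaction, called in 4.42% of all genes, was called for Rbp4, for Pparg (-1.25 ± 0.47; limma adjusted p = 0.415) and for Nr4a2 (-2.79 ± 1.20; limma adjusted p = 0.490).

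**Figure D5:**
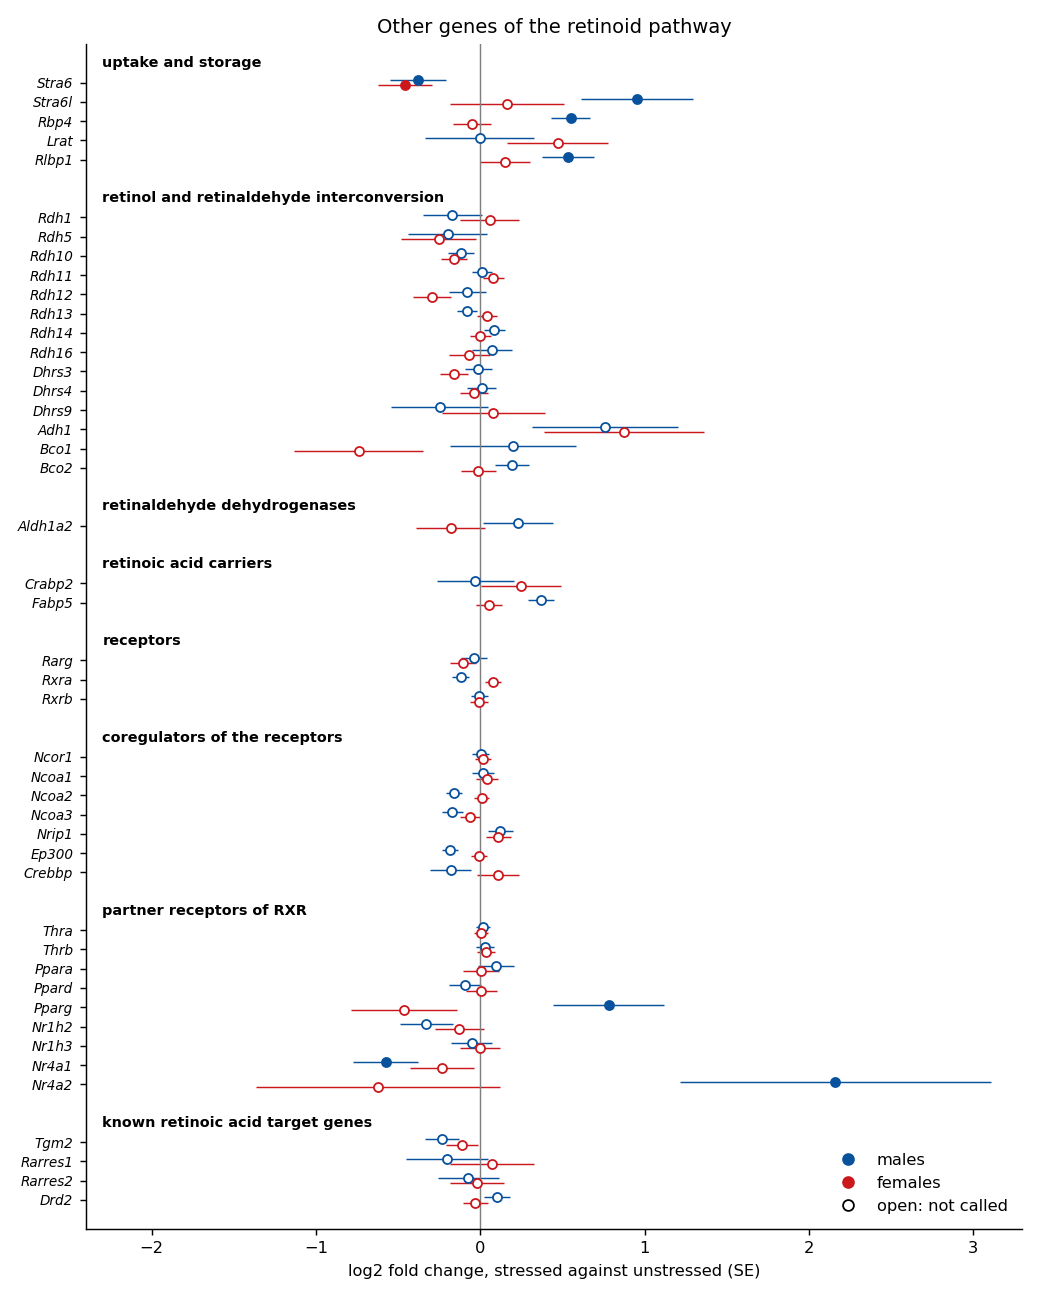
Log2 fold changes with stress (points) and standard errors (bars) of the 45 tested pathway genes by role, in males (blue) and females (red), filled where the gene met the call rule. Rbp4, Rlbp1 and Stra6l lie to the right of 0 in males, and Stra6 lies to the left in both sexes.

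For each of the 7 genes, the genes whose log2 CPM followed it most closely over the 12 libraries are given by Pearson's r as a description, since the libraries share group, depth and tissue composition and the closest of many genes is always close. Aldh1a1 was followed by Sept5 (0.941), 4930572J05Rik (0.939) and Kcnab2 (0.936), and Aldh1a3 by Zc3h10 (0.926), Sp8 (0.915) and Pde4a (0.905). Crabp1 was followed by Fgf3 (0.869), Slc43a3 (0.866) and Unc13c (0.848), and Cyp26b1 by Sema3c (0.963), Stk32b (0.950) and Agt (0.907). Among the receptors, Rara was followed by Gm5617 (0.975), Mettl11a (0.972) and Ap2s1 (0.970), Rarb by Clip4 (0.955), Ilf2 (0.945) and Hdac2 (0.944), and Rxrg by Ivns1abp (0.952), Dkk3 (0.911) and Dbc1 (0.905). No gene appeared in more than 1 of these 7 lists of 3.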

How the data were processed

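Each of the 12 mRNA libraries pooled NAc punches, and groups were taken from the labels. The authors aligned reads with TopHat2 to the Ensembl annotation (version 67) of NCBIM37 and used HTSeq for counting, and they deposited raw counts per gene. Versions and the strand setting are not given in the sources used here, and overlapping genes could therefore share reads. The small RNA counts were not used here. In the pathway list, 2 genes are not reported here and enter no count. Symbols, exon lengths and coordinates came from the GENCODE annotation of NCBIM37.

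Genes were kept where 80% or more of a group's libraries had more than 5 reads, and were scaled by TMM (edgeR 4.0.16), and voom with limma 3.58.1 in R 4.3.3 was fitted with 1 mean per group over all 12 libraries. The call rule of the study (a p under 0.05 without adjustment, with a change of at least 1.3-fold) was kept, and p was also adjusted by Benjamini-Hochberg over all 18593 genes. Fold changes come from this fit and CPM are TMM-scaled. P values measure the spread between pools. The 7 genes and the gene lists were chosen with earlier results of these data known. Text names all 7, every called pathway gene, up to 2 uncalled genes of highest mean CPM per role, and the 3 genes most alike in pattern to each of the 7 among genes with a mean of at least 10 reads. Alternatives were edgeR quasi-likelihood and DESeq2 1.42.0 tests, other scalings, filters and call rules, quality weights, a replicate block, a cortical marker covariate and leaving out each library. Plots were made with matplotlib 3.10.9. The fit was tested on simulated data.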

Additional observations from a re-analysis of the deposited data

Results flagged for a closer look

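Of the pathway genes other than the 7, 4 stood out for the difference between the sexes in their stress changes, 3 by the call rule and 1 by opposite directions of all stressed libraries. The sex-by-stress interaction met the call rule in limma for Rbp4 (log2 -0.60 ± 0.17, adjusted p = 0.260), Pparg (-1.25 ± 0.47, adjusted p = 0.415) and Nr4a2 (-2.79 ± 1.20, adjusted p = 0.490). All 3 SM libraries lay above the NSM mean and all 3 SF libraries below the NSF mean for Pparg and Nr4a2. The call of Rbp4 held when any 1 library was left out (log2 -0.68 to -0.48), whereas that of Pparg was lost without the second SM library, with the cortical term and without the 5 libraries high in cortical genes. That of Nr4a2 was lost without any 1 of 9 libraries, and its value was 0.69 with the cortical term in the fit. Rxra moved the opposite way, with all 3 SM libraries below the NSM mean and all 3 SF libraries above the NSF mean, and its interaction of 0.20 ± 0.07 (limma adjusted p = 0.397) lay under the fold of the call rule. None of the 4 passed an adjusted p of 0.05.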

How the results depend on the processing

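With 3 pools a group, genes of few reads such as Aldh1a3 and Cyp26b1 are the least precise. Of 665 alternative log2 values of the 7 genes, 652 moved by less than the SD between libraries within groups. Leaving out 1 of 3 libraries shifts a group mean by only part of that group's own SD. Such fits could thus hardly exceed this limit, and the count says little about stability. The Cyp26b1 change in females, for instance, ran from 0.36 to 0.94 when 1 library at a time was left out. With the cortical term the interaction was 1.99 for Cyp26b1, -0.35 for Rarb and -0.077 for Crabp1, and with quality weights it was 0.70 for Aldh1a3. Leaving out the 5 libraries high in cortical genes was an alternative added after seeing the data. It left SM with its first library alone and NSF with its second library alone. There Aldh1a3 was at -1.23 in males and 0.84 in the interaction, and the Aldh1a1 interaction at -0.88. Crabp1 was at -0.21 in females, -0.28 in the interaction and 0.25 between unstressed sexes. Rxrg was at 0.029, -0.024 and -0.079 in the same comparisons. Stra6 turned to 0.032 in females there, and with the cortical term Nr4a2 turned to -0.29 in males and 0.69 in the interaction. Numbers in brackets are counts of all genes called under the same setting, of 18593 where no other total is given. Fits that left out 1 library tested 18631 to 18790 genes. Of the 7, the number past the call rule in males was 1 by adjusted p (256). It was 1 to 3 leaving out 1 library at a time (831 to 1615). In females it was 1 by edgeR (371), DESeq2 (194), quantile normalization (326), quality weights (531), the replicate block (362) and the cortical term (249). It was 0 to 1 leaving out 1 library at a time (266 to 647). In the interaction it was 0 by adjusted p (5). Between unstressed sexes it was 2 with the replicate block (1000) and 2 without a fold threshold (2859). It was 1 to 2 leaving out 1 library at a time (705 to 1231). As above, nothing follows from the counts of the 7. The called pathway genes in males were 4 with at least 10 reads in every library (930 of 16353) and 3 with the cortical term (1275). They were 1 by adjusted p (256), 13 without a fold threshold (3992) and 4 to 7 leaving out 1 library (831 to 1615). In females they were 2 with at least 1 read in any library (865 of 27981) and 2 with the cortical term (249). They were 0 by adjusted p (0), 2 without a fold threshold (786) and 1 to 3 leaving out 1 library (266 to 647). In the interaction they were 5 with quality weights (1050), 1 with the cortical term (574) and 0 by adjusted p (5). They were 7 without a fold threshold (1775) and 1 to 5 leaving out 1 library (672 to 1103). Between unstressed sexes they were 5 by edgeR (1009), 1 by library size alone (887) and 0 by quantile normalization (970). They were 1 with at least 10 reads in every library (764 of 16353) and 5 with quality weights (1252). With only the libraries compared there was 1 (940 of 18431), by adjusted p 0 (39) and without a fold threshold 5 (2859). Leaving out 1 library gave 1 to 4 (705 to 1231). The causes were not tested. Replicate numbers are shared by the groups, and 5 of 12 same-numbered pairs deviated together with a correlation over 0.1 (-0.03 to 0.32). Of differently numbered pairs, the first NSM with the second SM library reached 0.18 and the second NSM with the first SM library 0.15. With the replicate block 998 genes had a limma adjusted p under 0.05 in males, beside 618 without it. Between unstressed sexes these were 562 and 53, in the interaction 9 and 5, and in females 0 and 0. Whether the numbers mark a shared batch was not tested. The replicate block called 6 pathway genes in males (1309), 1 in females (362), 3 in the interaction (896) and 2 between unstressed sexes (1000). Of the 7 it called 2 in males and 2 in the interaction.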
